A study of Mus musculus with 4 samples.

Results

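Eomes and Tbx21 encode the T-box transcription factors Eomesodermin and T-bet. T-box factors bind DNA through a shared domain. In CD8+ T cells, T-bet is known for driving effector genes such as interferon gamma, and Eomesodermin for the memory state and for the IL-15 receptor subunit CD122. Tcf1, a partner of Lef1 in the same DNA-binding family, is known as an activator of Eomes in memory CD8+ T cells. Accessible DNA around the pair was mapped by DNase-seq, in which DNase I cuts open chromatin and the released fragments are sequenced.

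Libraries called DKO came from cells of Tcf1-/-Lef1-/- genotype, produced by hCD2-Cre acting on floxed alleles of both genes. Libraries called WT came from cells wild type for both genes. Per the series' design, animals of both genotypes carried hCD2-Cre and Rosa26-lsl-GFP, a reporter that turns green where Cre has acted. In both, splenic cells that were GFP+ TCRbeta+ CD62Lhi CD44lo-med CD8+, a naive phenotype, were sorted. They were cultured in IL-7 plus IL-15, which keep T cells alive in the absence of antigen, and lysed after 72 h. The sample titles call the cells "stim CD8", so the maps are of cultured cells and not of freshly sorted ones. There were 2 DKO and 2 WT libraries. The labels state neither the age nor the sex of the animals, nor whether replicates came from separate ones, so differences between replicates may be technical. With no mm9 annotation, the cell type was not checked against its markers, nor the deletion against its genes.

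Peaks had been called and deposited per library, in mm9 coordinates. A peak was a member when its midpoint lay in chr9:118050000-118450000, which holds Eomes at about 118.387 to 118.395 Mb, or in chr11:96930000-97010000, which holds Tbx21. The stretches were selected by position, with results of these data known. The stretch of Eomes was drawn to take in a site already known to be called in both WT libraries alone, so that site is described here and supports nothing. Peaks of different libraries that overlapped by at least 1 bp were merged into sites. The 51 member peaks, of 84735 in the series, formed 22 sites of 38986, with 14 around Eomes and 8 in the Tbx21 stretch. Sites are named below by the Mb position of their midpoint in mm9.

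The nearest peaks outside the Eomes stretch lay 3.3 kb before its lower edge, in DKO replicate 2 with a fold of 4.19, and 121.6 kb past its upper edge, in DKO replicate 1 with a fold of 6.64. Outside the Tbx21 stretch the nearest peak lay 17.8 kb before its lower edge in both replicates 1, with folds of 10.8 in DKO and 5.67 in WT. Past its upper edge the nearest lay 38.3 kb away in DKO replicate 2, with a fold of 8.83. Fold is the authors' own value for each peak, the number of fragments over the summit (the pileup) against the local background, each with 1 added.

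The 2 DKO lists held 34788 and 21353 peaks and the 2 WT lists 17521 and 11073, for replicates 1 and 2, with no fold under 4. The lowest background, which grows with sequencing depth, was 1.23 and 1.15 fragments in the DKO libraries and 1.50 and 1.47 in the WT libraries. The DKO lists held 55 and 57 peaks on chromosome Y and the WT lists none, so genotype, list length and any sex difference cannot be told apart in the comparisons that follow. With 2 libraries against 2, the smallest exact permutation p is 0.333, so no test of genotype is given. Where a list lacks a peak, the site either fell short of that list's thresholds or was called and then left off the list used here, and neither makes it closed. Peak names are numbered along the genome, and 1476 and 908 numbers are absent from the DKO lists and 1530 and 871 from the WT lists, for replicates 1 and 2; the labels do not say why. Fewer accessible cells and less accessibility per cell cannot be told apart in such bulk libraries.

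The gene starts are shown first, because the Eomes stretch turns on a promoter without a call in the deposited lists. Both sequences are RefSeq's for GRCm38.p6, 250 bases before to 50 after the start. That build is not the mm9 of the peaks, so these positions cannot be set beside the peak positions. The Eomes window is chr9:118477939-118478238 on the plus strand and the Tbx21 window is chr11:97115282-97115581 on the minus strand, each printed 5′ to 3′ in the direction of the gene. Capitals mark matches to the motifs searched.
Eomes: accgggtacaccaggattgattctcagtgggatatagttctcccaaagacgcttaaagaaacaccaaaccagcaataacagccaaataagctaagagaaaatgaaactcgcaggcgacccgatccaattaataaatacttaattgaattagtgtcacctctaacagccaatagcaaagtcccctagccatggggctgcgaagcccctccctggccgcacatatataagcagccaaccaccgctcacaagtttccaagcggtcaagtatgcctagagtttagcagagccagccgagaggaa
Tbx21: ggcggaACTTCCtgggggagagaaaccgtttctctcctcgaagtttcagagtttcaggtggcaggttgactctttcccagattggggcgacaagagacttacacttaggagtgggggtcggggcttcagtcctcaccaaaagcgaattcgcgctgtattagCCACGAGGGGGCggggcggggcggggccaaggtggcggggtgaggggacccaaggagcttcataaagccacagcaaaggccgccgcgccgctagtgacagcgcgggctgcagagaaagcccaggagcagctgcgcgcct

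The start of Tbx21 was the richer in G and C, at 62.0% with 21 CpG dinucleotides, against 47.3% and 10 for Eomes. The medians over 32851 RefSeq promoters were 52.7% and 7. Both strands were searched for TCF/LEF (CTTTGAT and CTTTGTT), T-box (AGGTGTGA), Runx (TGTGGTT), Ets (GGAAGT), STAT (TTCNNNGAA), AP-1 (TGANTCA) and the core of the insulator protein CTCF (CCNNN, then AGNNGGC without a gap). The Eomes window held none of them. The Tbx21 window held 1 Ets match on the opposite strand, beginning 244 bases before the start, and 1 CTCF core match, beginning 89 bases before it. Of all promoters, 23.8% held the Ets motif and 8.61% the CTCF core. The TCF/LEF motifs were in 3.73% and 5.85%, the T-box motif in 1.28%, Runx in 5.27%, STAT in 8.30% and AP-1 in 7.81%. A match is a run of letters and was not set against binding.

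Taken as 1 group, the 22 sites were called about as often as sites of the genome at large. DKO replicate 1 called 20 of them (90.9%), against 88.6% of all union regions, and DKO replicate 2 called 13 (59.1%), against 53.9%. WT replicate 1 called 11 of the 22, against 44.5%, and WT replicate 2 called 7 (31.8%), against 28.2%. Both WT counts include the 118.106 Mb site for which the Eomes stretch was drawn. Calls in DKO replicate 1 alone made up 7 of 22 (31.8%), against 31.6% of all regions. Sites in all 4 libraries made up 6 of 22 (27.3%), against 20.7%. Sites called in both DKO libraries and in neither WT library (DKO-only) made up 3 of 22 (13.6%), against 14.3%. These shares lie near the background and are no result about the T-box genes. All 6 sites shared by the 4 libraries lay around Eomes, and all 3 DKO-only sites lay in the Tbx21 stretch. This split was not tested and did not hold at a stricter threshold. At a −log10 q of at least 10, 3 of the 10 sites left around Eomes were DKO-only, and 0 of the 6 left in the Tbx21 stretch. Those 3 sites had WT calls that fell under this threshold. At the same threshold 0 Eomes sites were called in all 4 libraries. The shares over all union regions at this threshold were not computed, so these counts are no result about the T-box genes either.

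Around Eomes, 6 of the 14 sites were called in all 4 libraries (42.9%), against 20.7% of all union regions, and 1 was called in WT cells alone. DKO replicates 1 and 2 called 12 and 9 of the 14, against 88.6% and 53.9% of all regions. WT replicates 1 and 2 called 9 and 7 of the 14, against 44.5% and 28.2%. These WT counts, and the WT medians below, include the 118.106 Mb site for which the stretch was drawn. The median fold of the peaks was 8.95 and 7.72 in DKO replicates 1 and 2, and 5.95 and 7.08 in WT replicates 1 and 2. The medians of the whole lists were 8.50 and 7.24 for DKO, and 6.43 and 6.13 for WT. The peaks around Eomes were thus of ordinary strength within their lists, with WT replicate 1 below its list's median and the other libraries above theirs.

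No deposited list had a peak on the gene itself. The stretch given for Eomes, 118.387 to 118.395 Mb, held 0 peaks in the 4 lists, its start included. In WT replicate 1, 1 peak number was missing between 118314749 and 118398920, which spans the gene, and where that numbered peak lay is not known. No number was missing across the gene in the other 3 lists. The gene runs towards higher positions, so that 12 sites lay before its start and 2 after its end. The nearest upstream site ended 53.2 kb before the start, and the nearest downstream site began 3.9 kb past the end. The upstream sites formed a far group of 3 from 327.6 to 280.9 kb before the start, a lone site at 223.8 kb, and a near group of 8 from 120.0 to 53.2 kb.

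**Figure D1:**
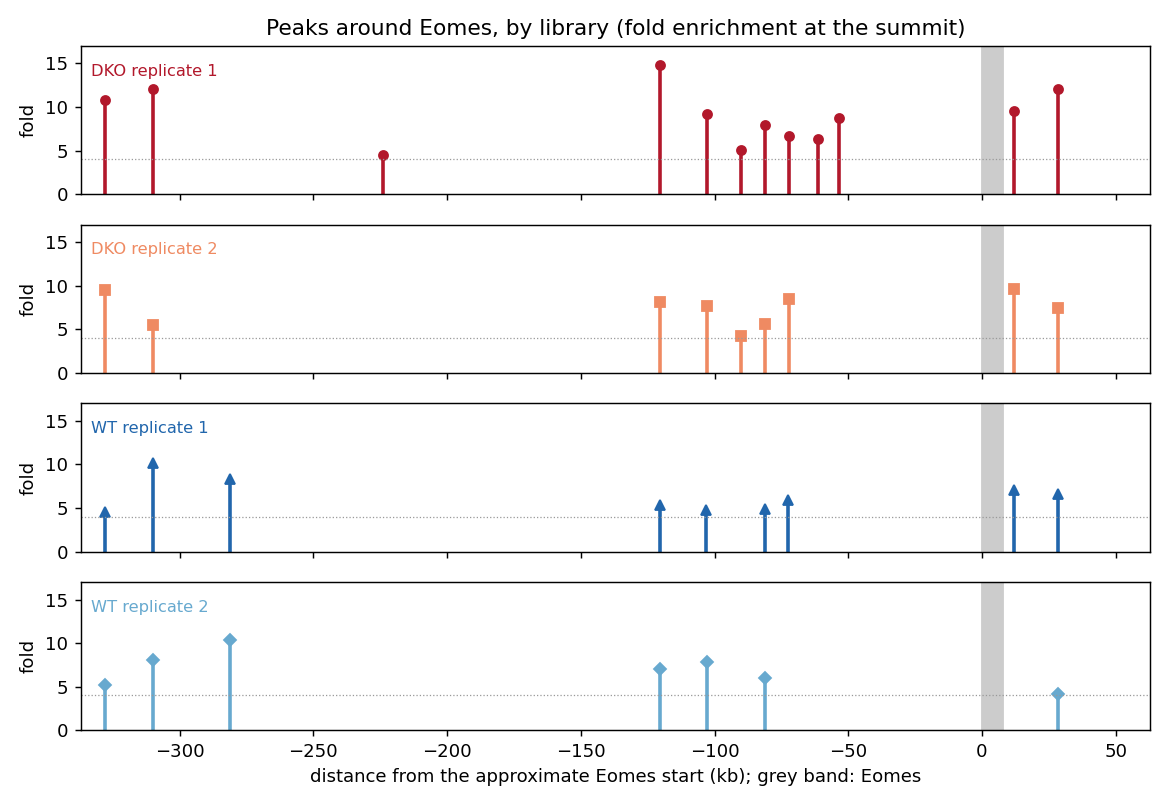
Fold enrichment at the summit of each peak around Eomes (y axis) against its distance in kb from the approximate start of the gene (x axis), 1 panel per library with DKO above WT; the grey band is the gene and the dotted line a fold of 4. The gene holds no peak in any deposited list, and the site 280.9 kb before it appears in the WT panels alone.

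The 118.106 Mb site was the one called in both WT libraries and in neither DKO library (WT-only). It spans chr9:118105897-118106098, and its summits in the WT libraries lay 9 bp apart. Its fold was 8.35 in WT replicate 1 and 10.4 in WT replicate 2, within the top 23.2% and the top 4.14% of those lists. The pileup was 22 fragments in WT replicate 1 (exact Poisson 95% interval 13.8 to 33.3) and 28 in WT replicate 2 (18.6 to 40.5). These intervals cover counting error only, and a summit is the highest point of its peak. The smallest pileup listed anywhere was 8 in each DKO library. The nearest DKO peaks ended 28.9 kb before the site in both lists. On its other side they began 57.0 kb away in the list of DKO replicate 1 and 160.6 kb away in that of DKO replicate 2. No peak number was missing between the DKO peaks on either side of the site. WT-only sites made up 1 of 14 around Eomes and 0.631% of all union regions. The site was chosen for this pattern.

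Beside it, the 118.077 Mb site, chr9:118076828-118077102, was called in all 4 libraries but stood high in the WT lists. Its fold was 12.0 and 5.46 in DKO replicates 1 and 2, against 10.1 and 8.11 in WT replicates 1 and 2. Since folds ran higher in the DKO lists, the site was ranked among the 8068 regions called in all 4 libraries, so that each library ranks the same regions. Its fold percentile was 38.1 and 5.22 in DKO replicates 1 and 2, and 84.8 and 77.1 in WT replicates 1 and 2. The percentile averaged 21.6 ± 23.2 in DKO and 81.0 ± 5.49 in WT (SD, n = 2 each), a difference of -59.3 points with no overlap of the genotypes. Of all ranked regions, 0.483% had a difference as far below 0. Both DKO percentiles lay below both WT percentiles in 1 of the 6 Eomes sites ranked, and in 19.0% of all ranked regions.

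The 118.059 Mb site, chr9:118059168-118059421, lay 17.4 kb from it and had the opposite order. Its fold was 10.8 and 9.54 in DKO replicates 1 and 2, and 4.51 and 5.22 in WT replicates 1 and 2. The percentiles were 27.1 and 49.4 in DKO, and 2.78 and 19.1 in WT. They averaged 38.3 ± 15.8 in DKO and 11.0 ± 11.6 in WT (SD, n = 2 each), a difference of 27.3 points, again without overlap. Of all ranked regions, 7.98% had a difference as far above 0. Both DKO percentiles were above both WT percentiles in 1 of the 6 Eomes sites and in 19.1% of all ranked regions. The far group thus held neighbouring sites that ranked higher in WT, higher in DKO, and in WT alone, but the count of sites without overlap was close to the background.

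In the near group, 3 sites were called in all 4 libraries and none separated the genotypes by rank. The 118.267 Mb site, chr9:118266633-118266965, had the highest fold of any member, 14.8 in DKO replicate 1. Its fold was 8.15 in DKO replicate 2, and 5.37 and 7.08 in WT replicates 1 and 2. Its percentiles were 64.3 and 31.7 in DKO and 11.9 and 60.5 in WT, so that the genotypes overlapped. The 4 summits of this site lay within 15 bp of each other.

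The 118.284 Mb site, chr9:118283833-118284210, was the widest, at 378 bp, and its summits were spread over 265 bp. Its fold was 9.19 and 7.72 in DKO replicates 1 and 2, and 4.79 and 7.84 in WT replicates 1 and 2. The percentiles were 14.4 and 26.5 in DKO, and 5.22 and 73.3 in WT. The WT libraries lay on both sides of the DKO libraries.

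The 118.306 Mb site, chr9:118305637-118305990, had a fold of 7.95 and 5.59 in DKO replicates 1 and 2, and 4.84 and 6.02 in WT replicates 1 and 2. Its percentiles were 7.26 and 5.81 in DKO, and 5.88 and 37.0 in WT. WT replicate 2 stood above the other 3 libraries, which lay close together. In all 3 of these sites WT replicate 2 ranked above WT replicate 1.

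**Figure D2:**
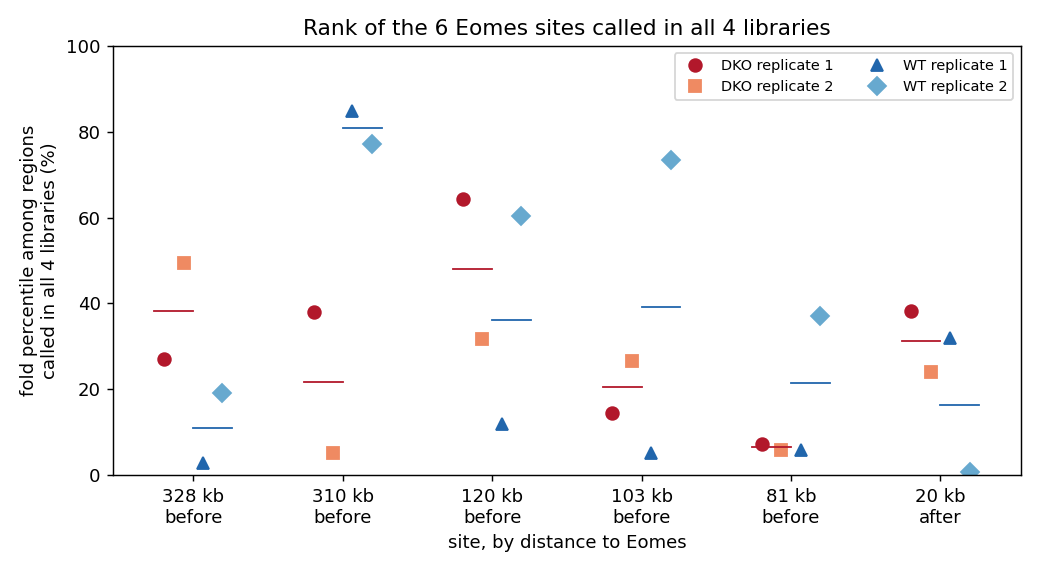
Fold percentile (y axis) of the 6 Eomes sites called in all 4 libraries, among the 8068 regions so called, by distance to the gene (x axis); points are libraries and lines the mean of each genotype (n = 2). The sites 327.6 and 309.9 kb before the gene separate DKO from WT in opposite directions, and the other 4 overlap.

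Downstream of the gene, the 118.415 Mb site, chr9:118415187-118415396, was also called in all 4 libraries. Its fold was 12.0 and 7.48 in DKO replicates 1 and 2, and 6.59 and 4.12 in WT replicates 1 and 2. Its percentiles were 38.3 and 24.1 in DKO, and 32.0 and 0.855 in WT, which overlap. Over the 6 shared Eomes sites, 19 of 24 percentiles were under 50, so most lay below the middle of the shared regions.

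The other downstream site and 1 in the near group were called in every library but WT replicate 2. The 118.399 Mb site, chr9:118398912-118399143, the nearest to the gene, had folds of 9.55 and 9.58 in DKO replicates 1 and 2 and 7.09 in WT replicate 1. Its summits lay within 12 bp of each other. The 118.315 Mb site, chr9:118314557-118314767, had folds of 6.62 and 8.47 in DKO replicates 1 and 2 and 5.95 in WT replicate 1. WT replicate 2 had the shortest list, and no peak number was missing from it in the Eomes stretch. Over both genes 3 of 22 sites had this pattern, against 11.6% of all union regions.

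The remaining 5 Eomes sites were each called in 1 DKO library. DKO replicate 1 alone called the sites at 118.163, 118.326 and 118.334 Mb, with folds of 4.49, 6.28 and 8.70, and a first site at 118.297 Mb with 5.02. DKO replicate 2 alone called 1 of the 22 sites, against 4.30% of all union regions. It lay at the same 118.297 Mb, with a fold of 4.27, and was separated from the DKO replicate 1 site by 4 bp. When peaks within 500 bp were merged, these became 1 DKO-only site, chr9:118296876-118297097. Without that merging, 0 of the 14 Eomes sites were DKO-only. WT replicate 1 lacked 1 peak number between 118284156 and 118305718, which spans both sites at 118.297 Mb. The missing number that spans the gene also spans the sites at 118.326 and 118.334 Mb. At some of these 4 sites the lack of a WT replicate 1 call may thus come from a peak left off its list. This cannot hold at both 118.326 and 118.334 Mb, since only 1 number was missing across them. The other missing numbers between member peaks lay between 118266965 and 118283833 in WT replicate 1 and between 118305990 and 118314599 in DKO replicate 2, where no further site lay.

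In the Tbx21 stretch, DKO replicates 1 and 2 called 8 and 4 of the 8 sites, against 88.6% and 53.9% of all union regions. WT replicates 1 and 2 called 2 and 0 of the 8, against 44.5% and 28.2%. More calls in DKO than in WT were thus found over the whole series too. The median fold of the peaks was 7.56 in DKO replicate 1, 4.94 in DKO replicate 2 and 5.09 in WT replicate 1, each below its list's median. The fold percentile within its own list ran from 8.11 to 64.8 over the DKO peaks, and was 36.6 and 9.12 for the WT peaks. RefSeq places Osbpl7 and Tbkbp1 as the protein-coding neighbours of Tbx21. Which of the sites lie in Tbx21, before it or in a neighbour was not analysed here.

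**Figure D3:**
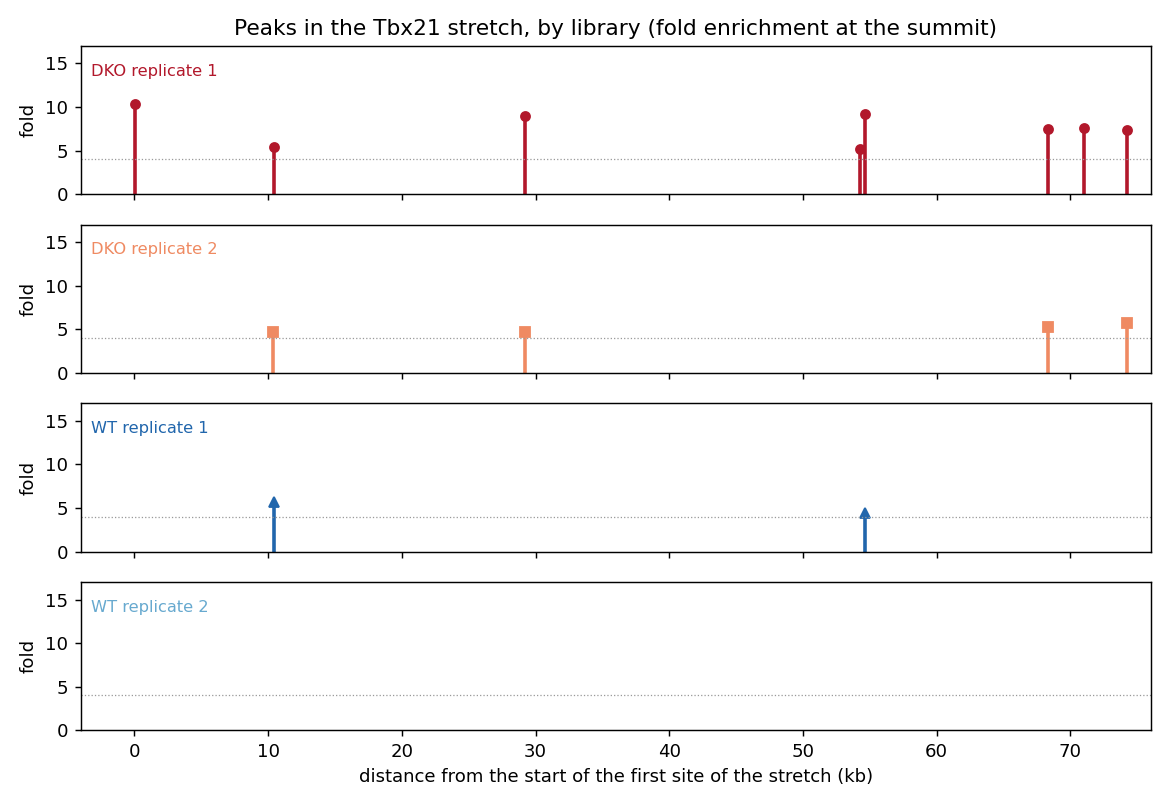
Fold enrichment at the summit of each peak in the Tbx21 stretch (y axis) against its distance in kb from the start of the first site (x axis), 1 panel per library with DKO above WT; the dotted line is a fold of 4. DKO replicate 1 has 8 peaks, DKO replicate 2 has 4, WT replicate 1 has 2 and WT replicate 2 has none.

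Of the 8 sites, 3 were DKO-only (37.5%), against 14.3% of all union regions. The 96.963 Mb site, chr11:96963153-96963344, had a fold of 8.97 in DKO replicate 1 and 4.63 in DKO replicate 2, with its summit at the same base, 96963198, in both. The 97.002 Mb site, chr11:97002258-97002423, had folds of 7.52 and 5.22 in DKO replicates 1 and 2, with summits 4 bp apart. The 97.008 Mb site, chr11:97008176-97008290, had folds of 7.38 and 5.69 in DKO replicates 1 and 2, also with summits 4 bp apart. Each of these folds was higher in DKO replicate 1, as was the median fold of that list.

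The pileups were 19 and 10 fragments at 96.963 Mb in DKO replicates 1 and 2, 21 and 14 at 97.002 Mb, and 22 and 16 at 97.008 Mb. The exact Poisson 95% intervals in DKO replicate 1 were 11.4 to 29.7, 13.0 to 32.1 and 13.8 to 33.3, in the same order. In DKO replicate 2 they were 4.80 to 18.4, 7.65 to 23.5 and 9.15 to 26.0. The smallest pileup listed anywhere was 10 in WT replicate 1 and 9 in WT replicate 2. A call depends on the local background too, so an uncalled site may have held more fragments than these. The DKO replicate 1 intervals lay above both of these values, and each DKO replicate 2 interval held 10. The sites are in this set because both DKO lists and neither WT list called them. Their DKO pileups therefore support no difference between the genotypes. All pileups are raw counts, and the lowest background was 1.15 fragments in DKO replicate 2 and 1.50 in WT replicate 1. Divided by its lowest background, the DKO replicate 2 pileup was 8.72 at 96.963 Mb, 12.2 at 97.002 Mb and 14.0 at 97.008 Mb. The smallest pileup of WT replicate 1, so divided, was 6.66, and that of DKO replicate 2 was 6.98. Every peak of DKO replicate 2 thus lay above 6.66, so that these sites did so shows nothing about them. Whether these values differ was not tested. With every list held to its 11073 peaks of highest −log10 p, the length of the shortest list, no peak of any library was left in the Tbx21 stretch. The best placed, at 97.008 Mb in DKO replicate 2 and at 96.944 Mb in WT replicate 1, ranked 14767 and 12446 in their lists.

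**Figure D4:**
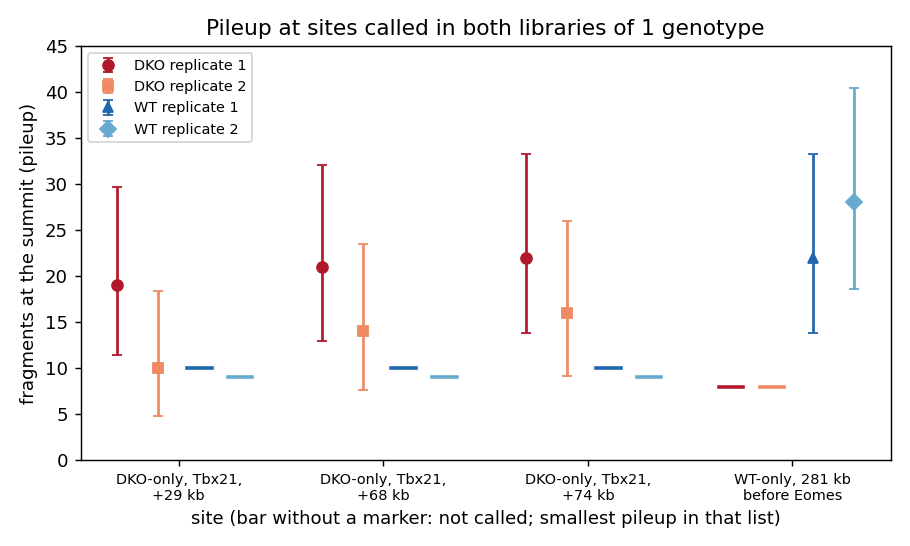
Fragments at the summit (pileup, y axis) with exact Poisson 95% intervals at the 4 sites called in both libraries of 1 genotype and neither of the other (x axis); a bar without a marker stands for a library that did not call the site, at the smallest pileup of its list. The bars are not calling limits at these sites, and pileups are raw counts, not scaled for depth. At the DKO-only sites the intervals of DKO replicate 1 lie above the WT bars at 10 and 9. Those of DKO replicate 2 reach below 10. The DKO-only sites are shown because only the DKO lists called them, so their place above the bars supports no difference. The WT-only site, chosen for its pattern, has pileups of 22 and 28.

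The 96.944 Mb site, chr11:96944327-96944541, was called in both DKO libraries and in WT replicate 1. Its fold was 5.38 and 4.66 in DKO replicates 1 and 2, and 5.72 in WT replicate 1, the highest of the 3. Only 2 of the 8 Tbx21 sites had a WT call, and at the other one the DKO fold was the higher. Within the lists the folds at 96.944 Mb stood at the percentiles 16.5 and 9.21 in DKO replicates 1 and 2 and 36.6 in WT replicate 1. The lists differ in length and no change is read from this.

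A neighbouring pair lay at chr11:96988263-96988389 and chr11:96988598-96988807, 208 bp apart. The second of these was called in both replicates 1 alone, with folds of 9.15 in DKO and 4.45 in WT and summits 14 bp apart. This pattern was found in 1 of the 22 sites and in 5.28% of all union regions. The first was called in DKO replicate 1 alone, with a fold of 5.19. DKO replicate 1 alone also called the 96.934 Mb site, with a fold of 10.3, the highest in the Tbx21 stretch, and the 97.005 Mb site, with a fold of 7.60. No peak number was missing in the Tbx21 stretch in any of the 4 lists.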

How the data were processed

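Members and lists were chosen with earlier results of these data known. For each library the authors deposited peaks with a fold enrichment ratio, a −log10 p and a −log10 q of the summit, and a score of 10 times the −log10 q. Per the submitters' processing notes, FastQC, Bowtie2 2.2.5, MACS2 2.1.1 and mm9 were used; their settings, any control library and duplicate handling: not given in the sources used here. Peaks were called per library. Positions were converted to count from 1. Pileup and background were solved from fold and p for peaks with −log10 p under 250, to within 0.01 of the deposited −log10 p, which gave at least 99.8% of each list; the solution and the merging were tested on simulated data. Groups came from the sample titles. Every site of both stretches is named. The rule for the CTCF core, planned with a spacing 1 base too short, was corrected. Under the planned rule the Tbx21 window held 0 matches and 7.40% of all promoters held one. The CTCF match given for Tbx21 thus comes from the corrected rule alone. Planned gene and marker lists need an mm9 annotation, not used here. Tools were Python 3.11.15, pandas 2.3.3, numpy 2.4.6, scipy 1.17.1 and matplotlib 3.10.9.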

Additional observations from a re-analysis of the deposited data

How the results depend on the processing

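The 118.106 Mb site, chosen for its pattern, stayed the single WT-only Eomes site in all 10 alternatives. These left out each library, raised the −log10 q minimum to 5 or 10, or equalised list lengths. Others merged peaks within 500 bp, asked for 50% cover or took any overlap with the stretch. Leaving out a library, merging peaks or taking any overlap could not change the class of this site. The nearest DKO peaks lay 28.9 kb away, so no alternative could add a DKO call to it. The stricter −log10 q, equal lengths and 50% cover could only have removed WT calls. The stability of the site thus supports no difference between the genotypes. For the counts that follow, the shares over all union regions under each alternative were not computed. DKO-only Eomes sites numbered 1 at a −log10 q of at least 5, 3 at 10, 1 with merging, and 0 to 4 without 1 library. Eomes sites called in every library fell to 0 at a −log10 q of 10, to 1 at equal lengths and to 2 at 50% cover. DKO-only Tbx21 sites fell to 2 at a −log10 q of at least 5, where the 96.963 Mb site dropped out. They fell to 0 at a −log10 q of 10 and at equal lengths, and ran from 3 to 6 without 1 library. Tbx21 sites called in every library left ran from 0 to 1. The median percentile difference of the 6 shared Eomes sites, DKO minus WT, was -1.56. It was -19.9 when ranked by summed pileups and ran from -21.5 (without WT replicate 1) to 7.95 (without WT replicate 2). With replicate number as a replicate block it was 7.75 within replicate 1 and -30.0 within replicate 2; the number is not known to pair libraries (correlation of deviations -0.0087). Where values moved and no construction shows why, the cause was not tested. The differences at 118.059 and 118.077 Mb kept their signs in all 8 alternatives. As the genotypes did not overlap there, leaving out 1 library or taking 1 replicate block could not change the sign. Ranking by −log10 p or by summed pileups could. Those differences were 22.7 and 20.4 at 118.059 Mb, and -68.0 and -70.4 at 118.077 Mb. No Tbx21 site could be ranked.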
